A study of Mus musculus with 6 samples.

Results

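The mouse precursors mmu-mir-193a, mmu-mir-455, mmu-mir-490, mmu-mir-879 and mmu-mir-149, below without their prefix, are 5 of the 855 miRNA precursors measured by small RNA sequencing of whole mouse retina. They were chosen by their deposited levels in these 6 libraries: each was higher in retinas with Dicer1 deleted in rods by more than the typical precursor, and lies outside the known miRNA clusters that moved. The difference of the 5 between genotypes is therefore a description with no test, and tests are given only for other precursors. Levels are in RPKM, reads divided by the length of the precursor and by the reads of the library. All 5 averaged over the minimum of 10 RPKM that was set for comparison between genotypes, which 461 precursors met.

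Retinas came from 4-week-old mice of a mixed C57BL/6J and SJL background. The cKO mice carried floxed Dicer1 alleles (Dicerfl/fl) and the iCre75 transgene (iCre75+), which the study used to delete Dicer1 in rod photoreceptors. The controls were littermates with the same floxed alleles and no transgene (Dicerfl/fl, iCre75-), so floxed Dicer1 was shared by both groups. There were 3 libraries per genotype, each from a pool of 6 retinas, and the series' design text calls them biological replicates. Only rods are targeted, so the other retinal cells, and those rods that escape the Cre, keep Dicer1, whose enzyme cuts hairpin precursors into mature miRNAs.

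A miRNA is processed from a hairpin precursor into a mature strand of about the same length for every miRNA, and bases 2 to 8 of that strand, the seed, take the largest part in pairing with target mRNAs. Many precursors lie inside introns of coding genes and are transcribed with them, so a host gene can point to cells in which the miRNA could be made. A mature strand can come from either arm of the hairpin (5p or 3p), and the values here sum both arms.

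The mature sequences below, from RefSeq on GRCm38.p6, are shown because the 5 miRNAs have no seed in common, while miR-193a-3p shares its seed with miR-193b-3p. Seeds are in capitals, and the sequences run 5′ to 3′.
miR-193a-3p: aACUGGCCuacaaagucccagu
miR-193a-5p: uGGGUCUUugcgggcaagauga
miR-193b-3p: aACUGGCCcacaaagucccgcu
miR-455-3p: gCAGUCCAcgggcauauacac
miR-455-5p: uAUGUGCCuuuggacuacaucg
miR-490-3p: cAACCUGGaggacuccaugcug
miR-490-5p: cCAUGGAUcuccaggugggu
miR-879-3p: gCUUAUGGcuucaagcuuucgg
miR-879-5p: aGAGGCUUauagcucuaagcc
miR-149-3p: gAGGGAGGgacgggggcggugc
miR-149-5p: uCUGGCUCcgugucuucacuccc
miR-365-3p: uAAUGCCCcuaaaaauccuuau

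The 3p strands of mir-193a and mir-193b share their seed and differ at 3 of 22 positions counted from the 5′ end, U9C, A20G and G21C, with the mir-193a base first. Both hairpins are shown because their reads were counted over the whole precursor, with the 5p and 3p arms in capitals.
mir-193a hairpin: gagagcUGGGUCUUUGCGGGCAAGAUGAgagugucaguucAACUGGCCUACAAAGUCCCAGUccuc
mir-193b hairpin: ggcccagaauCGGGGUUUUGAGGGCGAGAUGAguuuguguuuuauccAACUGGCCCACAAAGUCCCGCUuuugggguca

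In a comparison with 830 other hairpins, mir-193a and mir-193b shared a window of 20 bases with at most 1 mismatch, so short or mismatched reads could be placed at both. No such window was found for mir-455, mir-490, mir-879 or mir-149. The precursors mir-365-1 and mir-365-2 give the same miR-365-3p and cannot be told apart by it.

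In the GENCODE M21 annotation of GRCm38, 4 of the 5 precursors lie on the sense strand in introns of coding genes, and mir-193a lies in none. The authors mapped to mm9, so no coordinates are given. On chromosome 4 mir-455 lies in Col27a1, which encodes a fibrillar collagen of cartilage, and on chromosome 1 mir-149 lies in Gpc1, which encodes glypican-1, a heparan sulfate proteoglycan of the cell surface. On chromosome 6 mir-490 lies in Chrm2, the gene of the M2 muscarinic acetylcholine receptor, and on chromosome 5 mir-879 lies in 9330182L06Rik. The precursor mir-193a, on chromosome 11, has Rab11fip4 as its nearest coding gene, 13946 bases away. The gap between mir-193a and mir-365-2 on that chromosome is 14365 bases. The same pairing is found on chromosome 16, where mir-193b and mir-365-1 are 4238 bases apart. The mRNAs of the host genes were not analysed here.

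Lying in a coding gene is common among retinal precursors. Of 448 tested precursors that could be placed, 214 (47.8%) lay in a coding gene on its own strand. Their median log2 fold change between cKO and control retina was 0.68, against 0.78 for the 234 others. After median-of-ratios scaling, a scaling that gives the typical precursor the same level everywhere, these medians were -0.046 and 0.068. The GC content of the hairpins was 68.2% for mir-149, 54.9% for mir-455, 54.5% for mir-193a, 48.7% for mir-879 and 47.6% for mir-490, beside a median of 47.4% over the 448.

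Recovered library totals, at which the values stand, were 5480940 to 6925715 reads in cKO and 6894116 to 7478237 reads in control libraries. RPKM is relative to a library's own total, so it does not show whether a retina held more of a miRNA. In whole retina fewer cells of a type and less RNA per cell cannot be told apart. Most precursors were higher in cKO retina on this scale: the median log2 fold change of 461 precursors was 0.74, 320 rose (69.4%) and 8 fell (1.74%) in limma with Benjamini-Hochberg adjusted p below 0.05. At the same time mir-182, the most abundant miRNA of the photoreceptors, averaged 4024508 RPKM in cKO and 7295946 RPKM in control retina. The photoreceptor miRNAs mir-183, mir-96 and mir-182, the neuronal mir-124 copies and the mir-9 copies of progenitors and glia were present in every library.

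The 5 precursors differed widely in level and kept the same order in each of the 6 libraries: mir-149 was highest, followed by mir-879, mir-455, mir-490 and mir-193a. By mean RPKM they stood at places 95, 186, 212, 247 and 301 of 461. In cKO retina the ranges of neighbours in this order did not overlap. In control retina the range of mir-455 overlapped those of mir-879 and mir-490, while mir-149 and mir-193a stood apart.

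**Figure D1:**
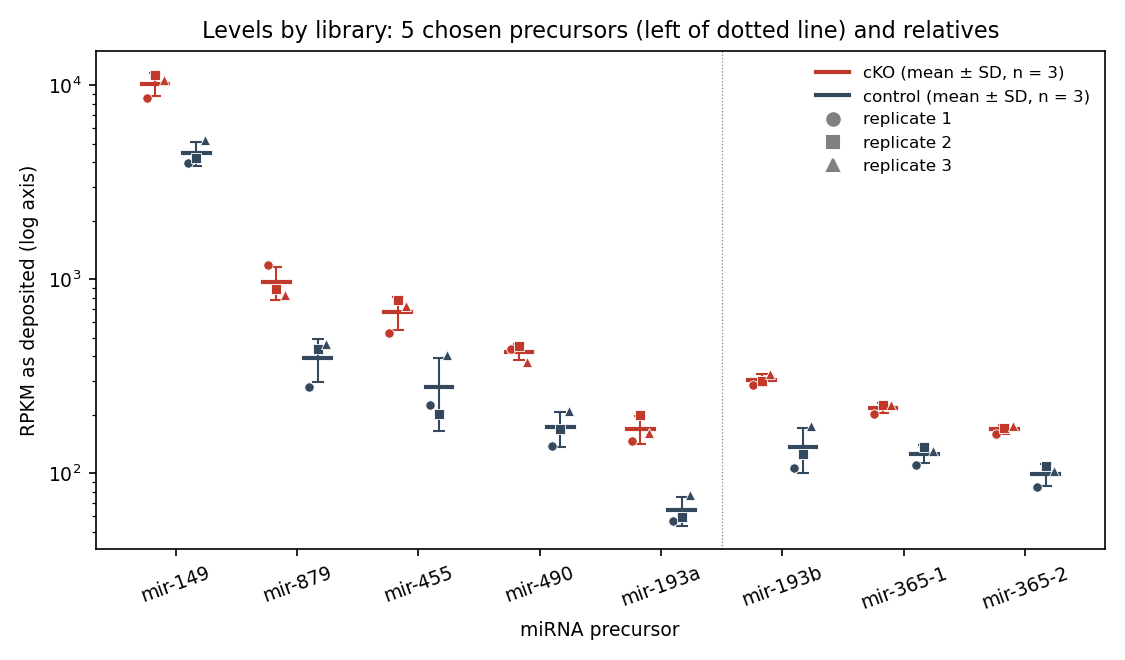
RPKM as deposited (log axis) of the 5 chosen precursors and of 3 relatives of mir-193a, in cKO (red) and control (dark) libraries. Each symbol is a library and bars give the mean ± SD (n = 3 per genotype). For mir-149 the cKO libraries sit between 8635 and 11233 RPKM, above the control libraries at 3983 to 5190.5.

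The precursors in genes of matrix and cell surface proteins come first. In mir-149, the glypican-1 intronic miRNA, the values were 8635, 11233 and 10571 RPKM in cKO 1 to 3, and 3983, 4215 and 5190.5 RPKM in control 1 to 3. No cKO library reached down to the control range. The means were 10146 ± 1350.0 RPKM in cKO and 4463 ± 641 RPKM in control retina (SD, n = 3 each), so that the log2 fold change was 1.19. It rested on 3824 to 5126 reads per cKO library and 1918 to 2419 reads per control library. Its spread between libraries (coefficient of variation 13.3% in cKO and 14.4% in control) was larger than counting alone would give (1.54% and 2.19%).

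For mir-455, known from cartilage as its host Col27a1 is, the values were 530.0, 779.6 and 723 RPKM in cKO libraries and 225, 202 and 408 RPKM in control libraries. The groups did not overlap, but control 3 held 1.81 to 2.02 times the mir-455 of the other controls. The means were 678 ± 131 RPKM in cKO and 278 ± 113 RPKM in control retina (SD, n = 3 each), so that the log2 fold change was 1.33. Without control 3 it was 1.65 (0.84 above the median precursor), and without control 2 it was 1.14 (0.42 above it). This was the least even of the 5 precursors in control retina, with a coefficient of variation of 40.5% where counting alone would give 8.13%.

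The miRNAs of lens and cornea, mir-31, mir-184 and mir-205, also varied between libraries of a genotype. In cKO 1 to 3 mir-31 stood at 1428, 3268 and 3167 RPKM, and in control 1 to 3 at 1494, 212 and 2282 RPKM. The values of mir-184 were 23904, 57210 and 60098 RPKM in cKO and 8731, 2186 and 52002 RPKM in control libraries. Those of mir-205 were 65.8, 283 and 193 RPKM in cKO and 62.9, 100.3 and 91.6 RPKM in control libraries. In control retina mir-31 and mir-184 put the libraries in the same order as mir-455, while mir-205 was highest in control 2, where mir-455 was lowest. In cKO retina mir-31 and mir-205 had the order of mir-455 and mir-184 did not, and mir-193a, mir-149, mir-143 and mir-140 had that order too. The lens and cornea list of 3 miRNAs, none of them at 0 in any library, summed to 25397 to 63458 RPKM in cKO and 2499 to 54376 RPKM in control libraries. The part of lens or cornea tissue in the levels of mir-455 was not tested.

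**Figure D2:**
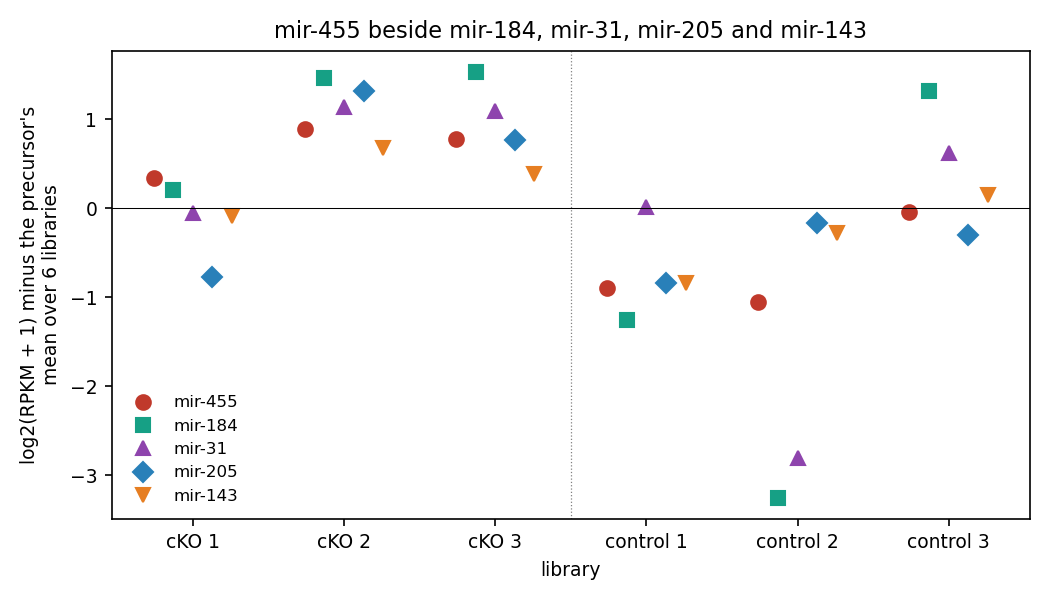
Level of mir-455 in each library as log2(RPKM + 1) minus its mean over the 6 libraries, beside mir-184, mir-31 and mir-205 of lens and cornea and mir-143 of mural cells. Control 3 is the highest control library in mir-455, mir-184, mir-31 and mir-143, and control 2 is the lowest in mir-455, mir-184 and mir-31 but the highest in mir-205.

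The mir-490 precursor lies in a receptor gene. It stood at 437, 451 and 376 RPKM in cKO libraries and at 138, 169 and 209 RPKM in control libraries. All 3 cKO libraries were above the control range. The means were 421 ± 40.0 RPKM in cKO and 172 ± 35.4 RPKM in control retina (SD, n = 3 each), so that the log2 fold change was 1.30. Behind these were 173 to 262 reads per cKO library and 87 to 124 reads per control library. In cKO retina mir-490 was the most even of the 5, with a coefficient of variation of 9.49%, not far from the 6.69% of counting alone.

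For mir-879, in the gene 9330182L06Rik, the values were 1179.8, 894 and 826 RPKM in cKO libraries and 280 (control 1), 435 and 466 RPKM in control libraries. The highest library was cKO 1 and the lowest control 1, and the groups did not overlap. The means were 967 ± 188 RPKM in cKO and 394 ± 99.8 RPKM in control retina (SD, n = 3 each), so that the log2 fold change was 1.31. Without control 1 it was 1.08, which was 0.37 above the median precursor of that fit, against 0.57 with all libraries.

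The precursor mir-193a, a paralogue of the mir-193b known from brown fat cell differentiation, was the least abundant of the 5. It stood at 147, 199 and 160 RPKM in cKO libraries and at 56.7, 59.3 and 77.2 RPKM in control libraries. The groups did not overlap. The means were 169 ± 27.4 RPKM in cKO and 64.4 ± 11.2 RPKM in control retina (SD, n = 3 each), so that the log2 fold change was 1.38, the highest of the 5. The values rest on few reads: 67, 91 and 58 in cKO libraries and 28, 27 and 36 in control libraries. For cKO 1, the lowest cKO library in level, the exact Poisson 95% interval was 114 to 186 RPKM. For cKO 3, the lowest in reads, it was 122 to 207 RPKM, and for control 3, the highest control, 54.1 to 107 RPKM. These intervals describe counting error alone: the reads carry no molecular identifiers, so PCR copies are not separate molecules. In control retina the coefficient of variation of mir-193a, 17.3%, was no larger than counting alone would give (18.3%).

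In all 5 precursors the 3 cKO libraries lay above the 3 control libraries, which also held for 71.6% of the 461 tested precursors. In the order of log2 fold change mir-193a took place 16, mir-455 place 20, mir-879 place 23, mir-490 place 25 and mir-149 place 41. They have no gap around them. Directly above and below mir-193a stood mir-1895 (1.43) and mir-126 (1.37), around mir-455 mir-466q (1.36) and mir-677 (1.32), around mir-879 mir-127 (1.32) and mir-1943 (1.31), around mir-490 mir-1943 and mir-377 (1.29), and around mir-149 mir-346 (1.19) and mir-193b (1.18).

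**Figure D3:**
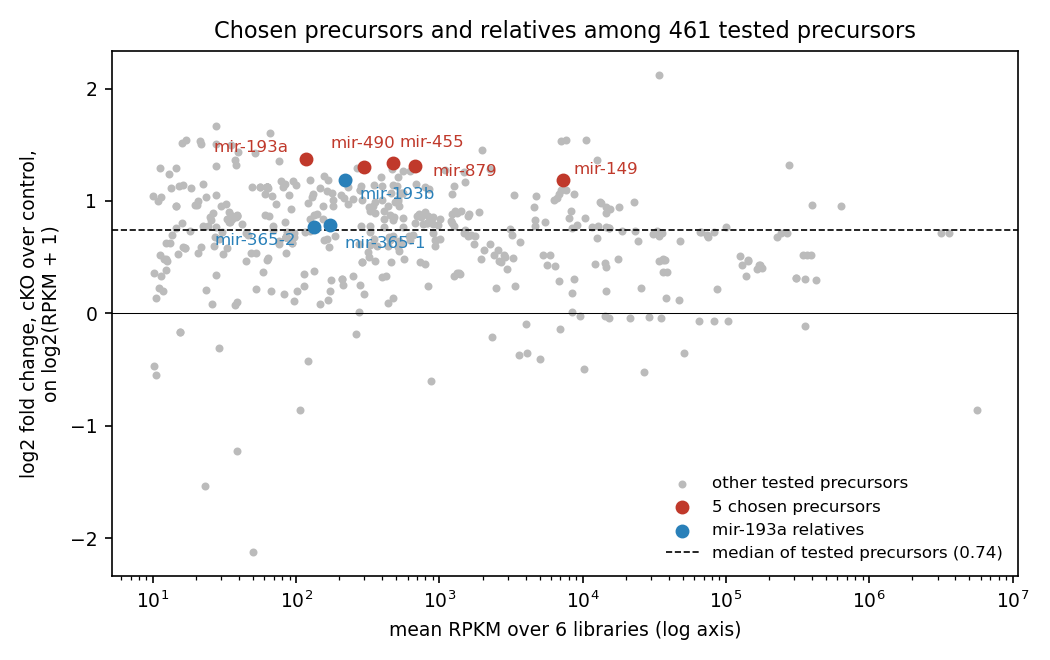
Log2 fold change (cKO over control, on log2(RPKM + 1)) against mean RPKM (log axis) for the 461 tested precursors (grey), with the 5 chosen precursors in red and 3 relatives of mir-193a in blue. The 5 lie between 1.19 and 1.38, above the dashed median of 0.74, with grey points at and above them.

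Relative to the median precursor of 0.74, the log2 fold changes were higher by 0.64 for mir-193a, 0.59 for mir-455, 0.57 for mir-879, 0.56 for mir-490 and 0.44 for mir-149. With median-of-ratios scaling they were 0.65, 0.60, 0.58, 0.57 and 0.45, where the median precursor stood at 0.018. On that scale mir-149 averaged 7850.2 ± 752 in cKO and 5723 ± 414 in control retina, and mir-193a averaged 131 ± 16.1 in cKO and 82.5 ± 8.37 in control retina (scaled RPKM, SD, n = 3 each). In 4 of the 5 the genotypes still did not overlap, beside 15.2% of tested precursors, while for mir-455 cKO 1 (429) stood below control 3 (486). Over the 5 scalings tried, the log2 fold change ran from 0.45 to 1.19 for mir-149, from 0.48 to 1.31 for mir-879 and from 0.60 to 1.38 for mir-193a.

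**Figure D4:**
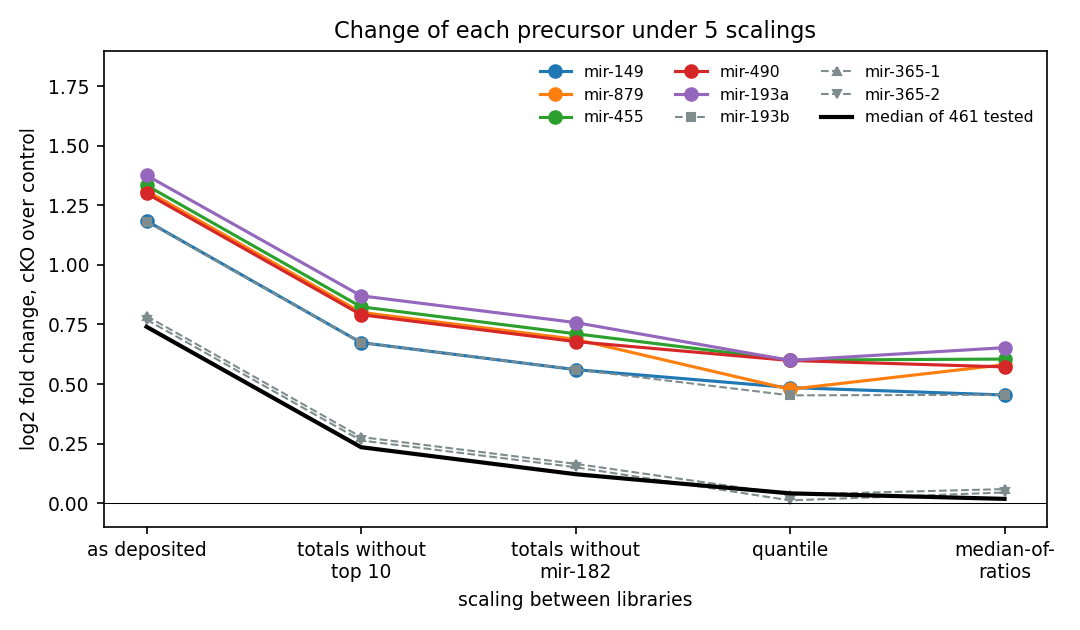
Log2 fold change (cKO over control) of the 5 chosen precursors (coloured), 3 relatives of mir-193a (grey, dashed) and the median of 461 tested precursors (black) under 5 scalings between libraries. The 5 stay above the median line under each scaling, as does mir-193b, while mir-365-1 and mir-365-2 run along it.

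The relatives of mir-193a had no part in the choice and were tested. As deposited all 3 rose and none fell, beside 69.4% of all tested precursors that rose (limma; the unadjusted p was below 0.05 for the same 3, and limma voom on recovered reads also gave 3). The paralogue mir-193b stood at 285, 298 and 326 RPKM in cKO libraries and at 107, 125 and 176 RPKM in control libraries, without overlap. On the log2 scale mir-193b rose by 1.18 (SE 0.20; limma adjusted p = 9.3e-04). Short or mismatched reads could be placed at both mir-193a and mir-193b, so this test may not be independent of the chosen mir-193a. The neighbour of mir-193a, mir-365-2, stood at 159, 172 and 174 RPKM in cKO and at 84.8, 109 and 102 RPKM in control libraries. It rose by 0.77 on the log2 scale (SE 0.17; limma adjusted p = 0.0032). The neighbour of mir-193b, mir-365-1, had 0.79 (SE 0.16; limma adjusted p = 0.0022). Both mir-365 values thus lay at the median of all precursors, and they are not separate measurements.

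With median-of-ratios scaling none of the 3 relatives passed, beside 2.17% of tested precursors that rose (limma; only mir-193b had an unadjusted p below 0.05). There mir-193b stood at 0.45 (limma adjusted p = 0.13), mir-365-1 at 0.059 (adjusted p = 0.88) and mir-365-2 at 0.044 (adjusted p = 0.90). Quantile normalization, totals without mir-182 and totals without the 10 most abundant precursors gave 0, 0 and 1 rise among the 3, beside 3.04%, 4.34% and 12.4% of tested precursors. None of the 3 fell in those fits (0 also at an unadjusted p below 0.05, limma), beside 6.72%, 7.81% and 6.29% that fell. The single rise was that of mir-193b.

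Under every scaling tried except quantile normalization, the ratio of mir-193b to mir-365-1 within a library stays the same. It was 1.41, 1.33 and 1.45 in cKO libraries and 0.964, 0.913 and 1.35 in control libraries, so that control 3 reached the cKO range. This difference had p = 0.2 by exact permutation (two-sided), and 3 libraries against 3 cannot go below 0.1. For mir-193a over mir-365-2, where the first was chosen for its rise, the ratios were 0.924, 1.16 and 0.920 in cKO and 0.669, 0.545 and 0.754 in control libraries.

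A pair of precursors in the table share other seeds of the 5. By RefSeq mir-5129 shares the seed of miR-455-5p, and mir-1943 that of miR-149-3p. In cKO libraries mir-5129 held 38.9, 70.5 and 46.8 RPKM, against 27.4, 16.7 and 10.9 RPKM in control libraries. It rose 2.83-fold (limma adjusted p = 0.0055). After median-of-ratios scaling it stood 1.74-fold higher and did not pass (limma adjusted p = 0.22). For mir-1943 the values were 33.6, 51.5 and 35.0 RPKM in cKO and 16.5, 15.9 and 13.6 RPKM in control libraries. It rose 2.48-fold (limma adjusted p = 0.0036), and after that scaling it stood 1.52-fold higher and did not pass (limma adjusted p = 0.21). Both stood far below mir-149 and were below mir-455 in each library. On a precursor of 75 bases 1 read is worth 1.78 RPKM in control 1 and 2.43 RPKM in cKO 3. The values of mir-5129 and mir-1943 thus rest on few reads.

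The precursors whose profile over the 6 libraries was nearest to each of the 5 were found by the root mean square difference of centred log2(RPKM + 1) among 305 precursors averaging 100 RPKM or more. To mir-149 the nearest were mir-497 (0.080), mir-370 (0.088) and mir-382 (0.11), where the median candidate stood at 0.31. To mir-193a they were mir-497 (0.095), mir-138-1 and mir-138-2 (0.11 each; median 0.40). To mir-455 they were mir-193a (0.21), mir-497 (0.21) and mir-193b (0.22; median 0.47). To mir-490 they were mir-126 of endothelium (0.10) and the imprinted mir-127 and mir-370 (0.12 each; median 0.38), and to mir-879 mir-3059 (0.14), mir-127 (0.14) and mir-154 (0.15; median 0.45). Of these imprinted miRNAs, mir-370 was also among the nearest of mir-149, and mir-127 among those of mir-879. The miRNA mir-497 was among the nearest of mir-149, mir-193a and mir-455. In cKO libraries it held 1439, 1656 and 1573 RPKM, against 579, 584 and 777 RPKM in control libraries. These distances describe 6 libraries that part by genotype.

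Of 5 other tested miRNAs that lie in genes of matrix, secreted or surface proteins, 3 rose and 1 fell as deposited, beside 69.4% and 1.74% of all tested precursors, with a median log2 fold change of 1.00 beside 0.74 for all tested precursors. The rises were those of mir-126 and of the copies mir-218-1 (1.00) and mir-218-2 (1.01). These copies had near-equal values in each library and are not separate measurements, and the list median is that of mir-218-1. The endothelial mir-126, in Egfl7, averaged 17991 RPKM in cKO and 7108 RPKM in control retina and rose by 1.37 (SE 0.17; limma adjusted p = 3.1e-04). It also passed with median-of-ratios scaling at 0.64 (adjusted p = 0.020). The abundant mir-708, in Tenm4, stood at 0.18 as deposited (limma adjusted p = 0.21). After median-of-ratios scaling mir-708 fell, at -0.55 (limma adjusted p = 0.017). The precursor that fell as deposited was mir-483, in the growth factor gene Igf2, named here after its values were seen. It stood at 87.0, 73.3 and 67.5 RPKM in cKO and at 139, 123 and 153 RPKM in control libraries, a change of -0.86 (SE 0.19; limma adjusted p = 0.0027). Of the 5, 1 (mir-126) rose and 2 (mir-708 and mir-483) fell with median-of-ratios scaling, beside 2.17% and 9.98% of all tested precursors.

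Of the miRNAs in receptor and channel genes, 5 of 10 reached the minimum level. As deposited 4 of these 5 rose and none fell, beside 69.4% and 1.74% of all tested precursors, with a median of 0.96 beside 0.74 (limma; 4 also at an unadjusted p below 0.05). The most abundant were mir-204 in Trpm3, at 0.96 (SE 0.11; limma adjusted p = 2.6e-04), and mir-211 in Trpm1, at 0.96 (SE 0.11), which are near-identical and also the pigment epithelium list. With median-of-ratios scaling none of the 5 passed (3 at an unadjusted p below 0.05), with a median of 0.22, beside 2.17% of all tested precursors that rose. With totals taken without the 10 most abundant precursors 3 rose, beside 12.4% of all tested. Quantile normalization gave 1 rise (mir-211) and totals without mir-182 gave 2 (mir-204 and mir-211), beside 3.04% and 4.34% of all tested.

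Of 5 cartilage and mesenchymal miRNAs 4 were tested. All 4 rose as deposited, beside 69.4% of all tested precursors, with a median of 0.46 beside 0.74. Besides mir-140 these were mir-199a-1, mir-199a-2 and mir-199b, with near-equal log2 fold changes (0.46, 0.45 and 0.46). Values of mir-199a-2 and mir-199b were equal in cKO 1, cKO 2, control 1 and control 2. The mir-199 precursors are therefore not separate measurements. With median-of-ratios scaling the median was -0.27 and none passed (limma; none at an unadjusted p below 0.05), beside 2.17% of all tested that rose and 9.98% that fell. The cartilage miRNA mir-140 stood at 8583, 13310 and 12401 RPKM in cKO and at 4214, 7692 and 8493 RPKM in control libraries. It rose by 0.79 on the log2 scale (SE 0.26; limma adjusted p = 0.022), and stood at 0.056 with median-of-ratios scaling, where mir-455 stood at 0.60. The next, mir-199a-1 of mesenchyme, stood at 0.46 as deposited (SE 0.17; limma adjusted p = 0.036) and -0.27 with that scaling. The count moved when single libraries were left out: 4 rose without control 3, and 1 (mir-140) without cKO 1 or without control 2. None rose without cKO 2, cKO 3 or control 1. Of all 461 tested precursors 322 rose without control 3, 289 without cKO 1 and 255 without control 2. The number was 252 without cKO 2, 274 without cKO 3 and 277 without control 1.

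**Figure D5:**
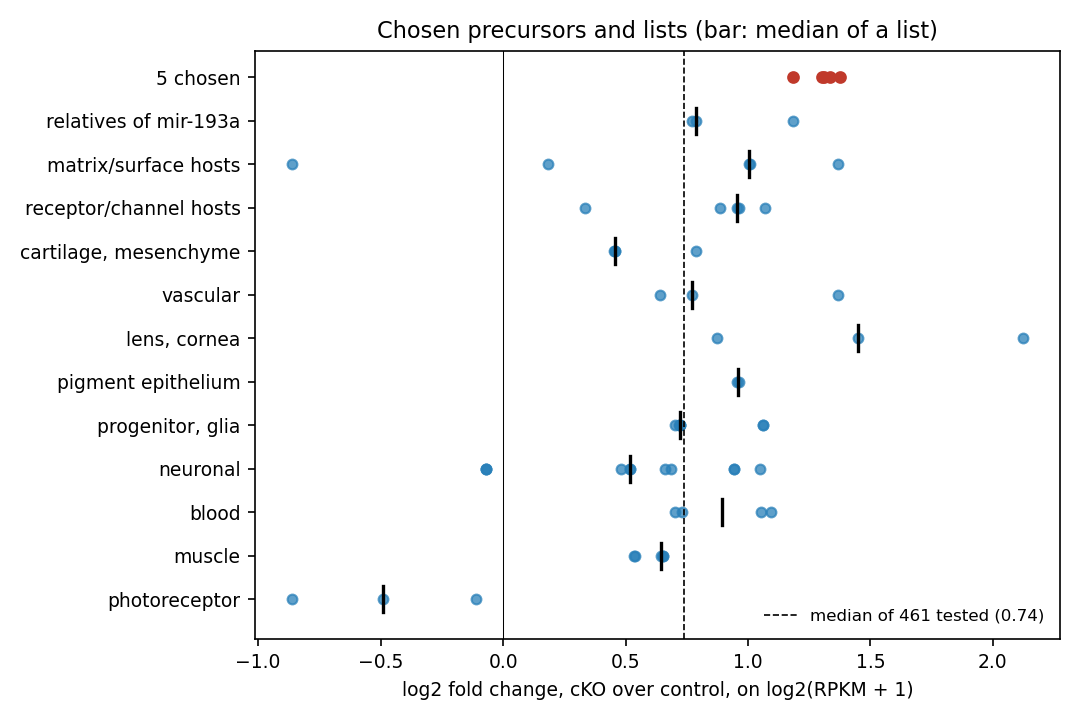
Log2 fold change (cKO over control, on log2(RPKM + 1), as deposited) of the 5 chosen precursors (red) and of each tested precursor of the lists (blue), with black bars at list medians. The dashed line is the median of 461 tested precursors, 0.74, and the photoreceptor list lies to the left of 0.

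In the lists of cell types a retinal pool can hold, medians as deposited were 0.77 for vascular, 0.96 for pigment epithelial, 0.72 for progenitor and glial, 0.52 for neuronal, 0.89 for blood, 0.65 for muscle, 1.45 for lens and corneal and -0.49 for photoreceptor miRNAs. As deposited 3 of 3 vascular, 2 of 2 pigment epithelial, 7 of 7 progenitor and glial, 8 of 11 neuronal, 3 of 4 blood and 3 of 5 muscle precursors rose, against 69.4% of all tested, and 2 of 3 photoreceptor precursors (mir-182 and mir-96) fell, against 1.74% of all tested. Among the abundant ones, mir-143 of mural cells stood at 0.64, mir-9-2 and mir-9-1 of progenitors and glia at 0.72, mir-486 of red cells at 0.73, mir-150 of lymphocytes at 1.05, mir-133a-1 and mir-133a-2 of muscle at 0.65, and mir-182 and mir-183 of photoreceptors at -0.86 and -0.11. The neuronal mir-124-3 and mir-124-1 stood at -0.071. The lens and corneal miRNAs mir-184 and mir-31 stood at 2.12 and 1.45 with overlapping groups and did not pass (limma adjusted p = 0.052 and 0.091), and of the 3 in that list 1 had an unadjusted p below 0.05. Without control 3 both passed, and without cKO 1 mir-184 and mir-205 passed. Of all 461 tested precursors 322 and 289 rose in these fits. Single libraries moved other counts too: no muscle precursor rose without cKO 2, cKO 3 or control 2. The mural mir-143 did not pass without cKO 2, cKO 3, control 1 or control 2. Of all 461 tested precursors 252 rose without cKO 2, 274 without cKO 3, 277 without control 1 and 255 without control 2. For photoreceptors mir-96 did not pass without cKO 2, cKO 3, control 2 or control 3, and without control 1 all 3 fell. Of all tested precursors 5 fell without cKO 2 or cKO 3, 4 without control 2 or control 3, and 12 without control 1. With median-of-ratios scaling the vascular list kept 1 rise, that of mir-126, and all 3 photoreceptor and 3 of 11 neuronal precursors fell, beside 2.17% of all tested precursors that rose and 9.98% that fell. On that scale no precursor of the other lists passed, and only the 2 pigment epithelial precursors had an unadjusted p below 0.05 (limma). Copies such as those of mir-9, mir-124 and mir-133a share reads, so the counts are not of separate measurements.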

How the data were processed

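The authors deposited RPKM values for 855 miRNA precursors, 1 column per library. The submitters' processing notes name Bowtie and mm9. The Bowtie version, the annotation and the rule for multiply mapping reads are not stated in these sources. Per the labels' protocols, all libraries shared a sequencing run. For 831 precursors matched by name to RefSeq, RPKM times length came in whole steps that were the same throughout a library (100% of 4986 values, tolerance 0.01 reads), which gave reads and totals. They are reads at precursors, and a read may count at several.

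Genotypes were compared, cKO minus control, by limma (3.58.1, R 4.3.3, with trend) on log2(RPKM + 1) in the 461 precursors that averaged 10 RPKM or more. This scale understates changes of low precursors. Tests were two-sided, with Benjamini-Hochberg adjustment and a threshold of 0.05. The fit was tested on simulated data. Exact Poisson intervals are at 95%, and figures used matplotlib 3.10.9. The 5 precursors, the lists and the alternatives were chosen with earlier results of these data known. Named are the 5, their relatives and seed partners, the 2 most abundant of each list, the 3 nearest profiles and the neighbours in fold order. Copies that make up part of a list count are named beside it.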

Additional observations from a re-analysis of the deposited data

How the results depend on the processing

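Over 17 alternatives each of the 5 precursors stayed higher in cKO retina and above the median precursor: by 0.52 to 0.71 on the log2 scale for mir-193a, 0.42 to 0.84 for mir-455, 0.44 to 0.66 for mir-490, 0.37 to 0.70 for mir-879 and 0.37 to 0.53 for mir-149. The 5 were chosen for standing above the median in these same libraries, so this is a description and no support for their rise. Alternatives that changed only the filter, the trend or the block left their log2 fold changes as they were. Scaling moved the counts of calls. Of all tested precursors 320 rose and 8 fell as deposited, 10 and 46 with median-of-ratios scaling, 14 and 31 with quantile normalization, 57 and 29 with totals without the 10 most abundant precursors, and 20 and 36 with totals without mir-182. Of the 3 relatives of mir-193a, 1 rose with totals without the 10 most abundant precursors and 0 with each of the other 3 scalings, where mir-193b alone had an unadjusted p below 0.05 (limma), and 3 rose with limma voom. With a minimum of 100 RPKM, at which fewer precursors were tested, 4 fell. Leaving out a library gave 252 to 322 that rose and 4 to 12 that fell (5 without cKO 2 or cKO 3, and 4 without control 2 or control 3), while 3 of the relatives rose each time. Replicate numbers are shared by both genotypes, and same-numbered libraries deviated together at r = 0.19, 0.26 and 0.0093. Crossed pairs gave r = -0.21 for cKO 2 with control 1 and r = -0.22 for cKO 1 with control 2. Thus cKO 1 and cKO 2 each correlated best with the control of their number, while cKO 3 correlated best with control 2 (r = 0.048). Whether the numbers pair the libraries cannot be told from these values, and the main fit was unpaired. With the replicate block 338 rose and 10 fell, and 3 relatives rose. The depth limits mir-193a most, at 27 to 36 reads per control library.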
